A study of Homo sapiens with 3 samples.

Results

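Chromosome 16 was described in 3 segments, the short arm up to position 36600000 of hg19, the long arm from there to 79300000, and the distal long arm from 79300000 to the last call, which ended at 90151400. Every diffuse region called with EPIC2 and every single-base summit called with MACS2 on the chromosome was taken, and each was placed in the segment that held its centre. This gave 11339 of the 247794 EPIC2 regions and 15770 of the 443480 summits in all 3 replicates together. The short arm held 4839 EPIC2 regions, the long arm 3475 and the distal long arm 3025. Of the summits, 6773 lay in the short arm, 5707 in the long arm and 3290 in the distal long arm.

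The calls came from short nascent strand sequencing (SNS-seq) of HCT116, a human colorectal cancer cell line grown in RPMI medium and left untreated. In SNS-seq, RNA-primed DNA strands made at sites where replication starts are separated from broken DNA by digestion with lambda exonuclease, which spares strands with an RNA end, and are then sequenced. All 3 replicates formed 1 group, so there was no contrast between conditions, and segments were compared with each other inside each replicate. The mapping asked where active replication origins lie in these cells.

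Origins of replication in human cells are licensed by loading of the MCM helicase after the origin recognition complex binds, and only part of the licensed sites start replication in any one cycle. They lie closer together in gene-rich chromatin that replicates early, and are sparse in gene-poor chromatin that replicates late. Chromosome 16 is gene-rich for most of its length, with a block of repetitive heterochromatin on the long arm beside the centromere and with gene-dense bands towards both ends. HCT116 is a near-diploid line that is known to carry rearranged chromosomes, including extra material of some chromosome arms. Copy number was not measured here, and no control library is named for the calling.

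The lists hold calls and no reads, so read depth is unknown. Replicate 2 had the fewest calls. On chromosome 16 it held 2172 EPIC2 regions and 2351 summits, against 5711 and 8082 in replicate 1 and 3456 and 5337 in replicate 3. Densities are therefore compared inside a replicate and not between replicates. The study's methods speak of triplicate experiments, and nothing in the labels ties a replicate to its own culture, so part of the spread between replicates may be technical. The libraries are genomic DNA, so the identity of the line was not checked against expressed markers. With 3 replicates the exact sign-flip permutation test used below (2-sided) cannot go under a p of 0.25, so no comparison could pass 0.05. A statement that a segment was higher or lower rests on the size of the ratio and on its direction in each replicate.

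The distal long arm was the segment richest in calls of both kinds, and the long arm between it and the centromere was the poorest. Density was taken per Mb of span with calls, meaning the 1 Mb windows that held a call in any replicate, since no call was made between 35147197 and 46386516, a stretch of 11.2 Mb around the centromere and the heterochromatin block. With windows counted from the start of each segment, the span was 36 Mb in the short arm, 33.7 of 42.7 Mb in the long arm and 10.9 Mb in the distal long arm.

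EPIC2 density in the distal long arm was 115, 81.8 and 81.7 regions per Mb in replicates 1, 2 and 3. It was 55.9, 15.0 and 32.2 per Mb in the long arm, in the same order. The short arm had 71.6, 21.6 and 41.2 per Mb. In each replicate the distal long arm was highest, the short arm came next and the long arm was lowest. Distal over long arm the density was 2.06, 5.46 and 2.54 times as high, a mean of 3.35 ± 1.84 (SD, n = 3; exact sign-flip permutation p = 0.25). The mean was 2.3 without replicate 2. The short arm had 1.28, 1.44 and 1.28 times the density of the long arm, a mean of 1.33 ± 0.0948 (SD, n = 3; exact sign-flip permutation p = 0.25).

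Summits kept the same order of segments with smaller ratios. The distal long arm held 140, 52.6 and 110 summits per Mb in replicates 1, 2 and 3. The long arm held 88.8, 23.2 and 57.4 summits per Mb and the short arm 99.1, 27.7 and 61.3. Every replicate placed the distal long arm first, although the distal value of replicate 2 was lower than the values of the other segments in replicates 1 and 3. The ratio of distal to long arm was 1.58, 2.26 and 1.92, a mean of 1.92 ± 0.342 (SD, n = 3; exact sign-flip permutation p = 0.25). The ratio of short to long arm was 1.12, 1.19 and 1.07, a mean of 1.13 ± 0.0619 (SD, n = 3; exact sign-flip permutation p = 0.25).

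**Figure D1:**
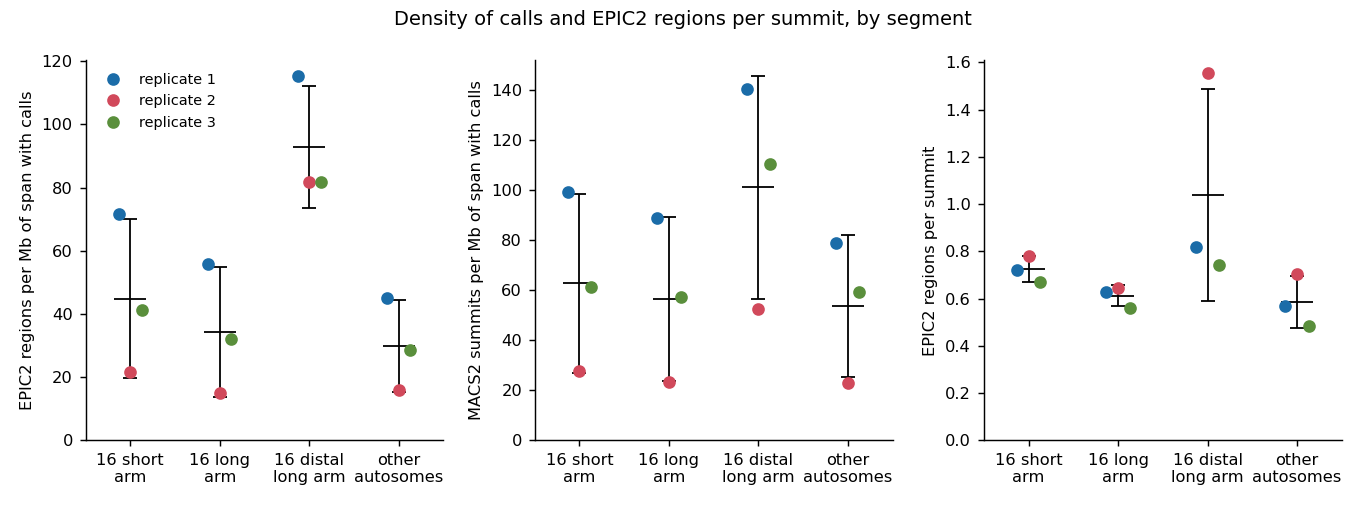
EPIC2 regions per Mb of span with calls, summits per Mb of the same span, and EPIC2 regions per summit in the 3 segments of chromosome 16 and on all other autosomes; points are replicates, and the horizontal line and bars are the mean and SD of 3 replicates. In the right panel replicate 2 stands at 1.56 regions per summit in the distal long arm while replicates 1 and 3 stand at 0.821 and 0.742.

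The rest of the genome gave the scale for these values. On the other autosomes the density was 44.9, 16 and 28.6 EPIC2 regions per Mb and 78.8, 22.7 and 59.3 summits per Mb in replicates 1, 2 and 3. The short arm lay above these values for both kinds of call in every replicate. The long arm lay above them in EPIC2 regions in replicates 1 and 3 and slightly below in replicate 2, while its summit density exceeded theirs in replicates 1 and 2 and lay under it in replicate 3.

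Taken as shares of chromosome 16, the distal long arm made up 13.5% of the span with calls. It held 21.9%, 40.9% and 25.7% of the chromosome's EPIC2 regions in replicates 1, 2 and 3, and 18.8%, 24.3% and 22.4% of its summits. In replicate 2 the excess over the share of span was therefore far larger for EPIC2 regions than for summits. The length covered by EPIC2 regions was divided still more unevenly, with 29.6%, 49.8% and 32.0% of the covered bases in the distal long arm.

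The number of EPIC2 regions per summit, which needs no span, set replicate 2 apart in the distal long arm. There were 0.821, 1.56 and 0.742 regions per summit in replicates 1, 2 and 3. The long arm had 0.630, 0.645 and 0.561 in the same order, and the short arm had 0.722, 0.781 and 0.672. Regions outnumbered summits in the distal long arm of replicate 2 alone, and the order of distal, short and long arm was otherwise the same in all replicates. The distal value was 1.30, 2.41 and 1.32 times that of the long arm, a mean of 1.68 ± 0.635 (SD, n = 3; exact sign-flip permutation p = 0.25). Against the other autosomes, at 0.570, 0.705 and 0.483, it was 1.44, 2.21 and 1.54 times as high, a mean of 1.73 ± 0.418 (SD, n = 3; exact sign-flip permutation p = 0.25).

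The long arm could not be set apart from the other autosomes by this measure. Its value was 1.11, 0.915 and 1.16 times theirs, with replicate 2 on the other side of 1 (mean 1.06 ± 0.129, SD, n = 3; exact sign-flip permutation p = 0.5). The short arm was higher than they were in all replicates, by 1.27, 1.11 and 1.39 times (mean 1.26 ± 0.141, SD, n = 3; exact sign-flip permutation p = 0.25). Short over long arm was 1.15, 1.21 and 1.20, a mean of 1.18 ± 0.0347 (SD, n = 3; exact sign-flip permutation p = 0.25), which was a narrow spread.

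Windows of 1 Mb, here counted from the distal border over the long arm and distal long arm, showed that the distal values were not carried by a few places. In replicate 2, EPIC2 regions outnumbered summits in 10 of 10 whole windows of the distal long arm, with a ratio from 1.15 to 1.90 and a median of 1.71. The same held in 2 of 33 windows of the long arm and in 7 of 36 windows of the short arm. In replicate 1 the ratio was under 1 in every window of the chromosome, and the distal windows ran from 0.519 to 0.978. In replicate 3 they ran from 0.342 to 1.04, with 1 of 10 over 1.

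The counts of windows varied together in replicates 1 and 3 along the whole chromosome. Over 79 windows the correlation of EPIC2 counts was 0.970 between these replicates (Pearson). Between replicates 1 and 2 it was 0.771 over the same windows and 0.881 over the 69 windows of the short and long arms. The windows share a library and its depth inside each replicate and neighbours are not independent, so these values are descriptions. For summits, replicates 1 and 2 had 0.827 with the distal windows and 0.815 without them. Removing these windows thus raised the Pearson value of this pair for EPIC2 counts and slightly lowered that for summits. By rank (Spearman) the EPIC2 counts changed little. Replicates 1 and 2 had 0.883 with the distal windows and 0.899 without them, and replicates 2 and 3 had 0.871 and 0.868.

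**Figure D2:**
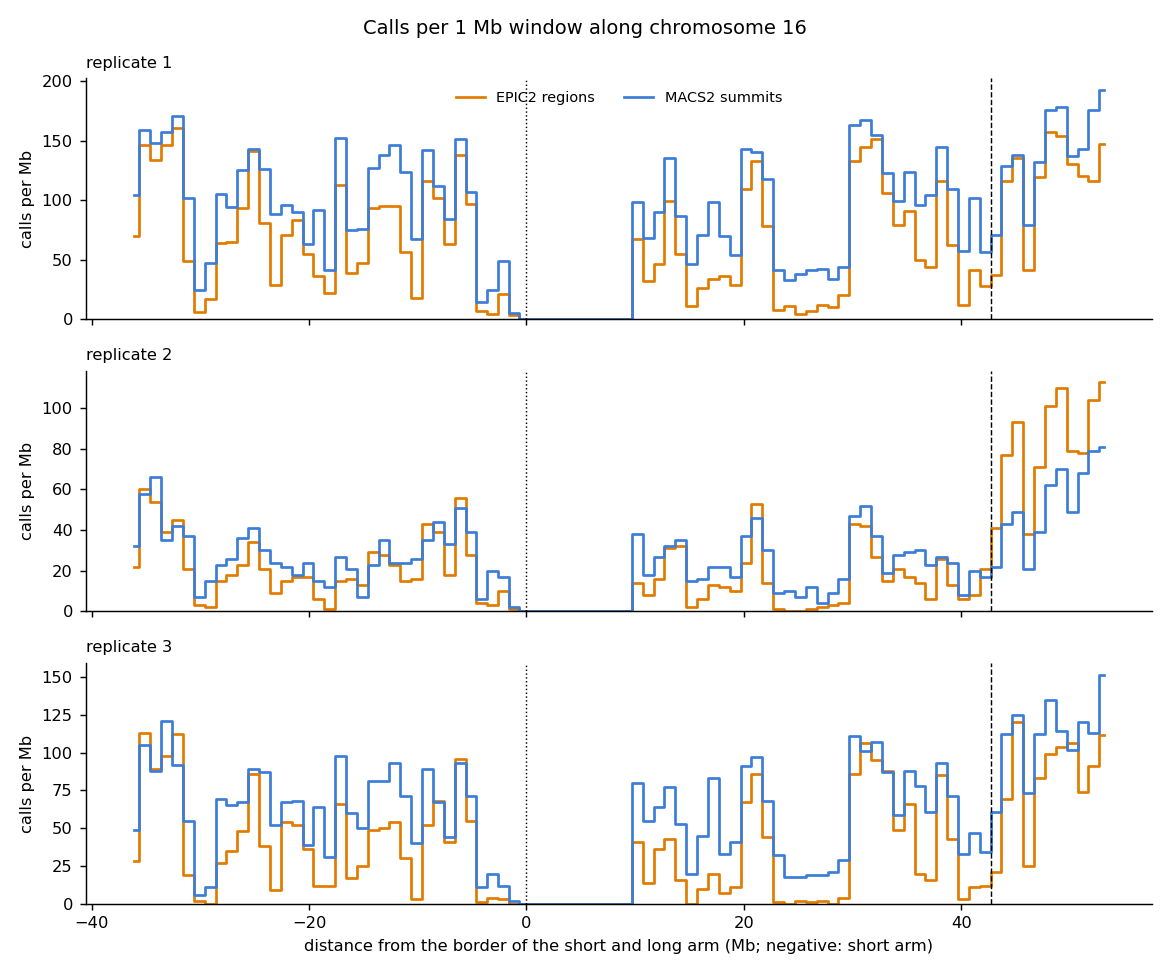
EPIC2 regions and summits per 1 Mb window along chromosome 16 in each replicate, against the distance in Mb from the border of the short and long arm (dotted line); the dashed line is the border of the distal long arm, and the vertical scale differs between panels. The EPIC2 line lies under the summit line over most of the chromosome and crosses above it in all whole windows to the right of the dashed line in replicate 2 only.

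The last window of the long arm and the first of the distal long arm, which meet at 79300000, are given as a description of the border. Just outside, replicate 1 had 28 EPIC2 regions and 56 summits, replicate 2 had 21 and 17, and replicate 3 had 12 and 34. Just inside, replicate 1 had 37 regions and 71 summits, replicate 2 had 41 and 22, and replicate 3 had 21 and 61. Replicate 2 was already above 1 region per summit just outside the border, and 19 of its 21 regions there lay in the last 0.5 Mb. Those 0.5 Mb held 14 summits of replicate 2, so the place where its ratio changes cannot be set from these counts. Away from the border, its window from 57300001 to 58300000 was also above 1, at 1.15 regions per summit.

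The 3 Mb on each side of the border differed more than single windows did. In the 3 Mb before it there were 0.377, 0.778 and 0.228 regions per summit in replicates 1, 2 and 3. In the 3 Mb after it there were 0.852, 1.85 and 0.705. All replicates had a higher ratio after the border. In replicates 1 and 3 the 3 Mb before the border were poor compared with the stretch from 6 to 3 Mb before it, where the ratio was 0.620 and 0.640, while in replicate 2 that stretch had 0.608 and so lay under the 3 Mb beside the border. Within the distal long arm replicate 2 went from 1.85 in the first 3 Mb to 1.72 in the next and 1.43 in the one after. Replicate 1 stayed between 0.819 and 0.882 over these stretches and replicate 3 between 0.647 and 0.845, with no such descent in either.

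**Figure D3:**
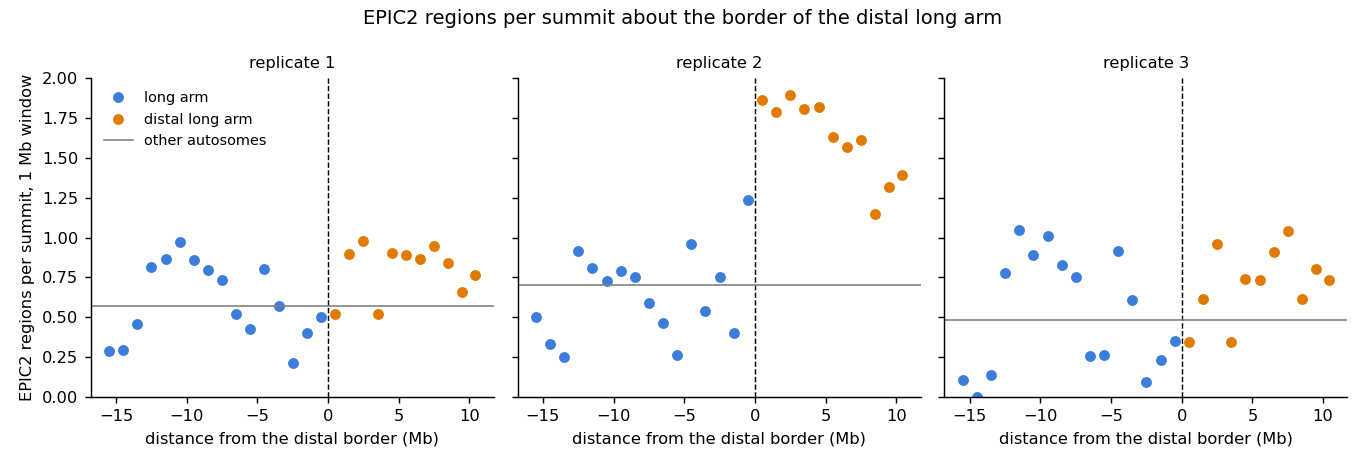
EPIC2 regions per summit in 1 Mb windows of the long arm and distal long arm, against distance in Mb from the border of the distal long arm (dashed line), 1 panel per replicate; the grey line is the value of all other autosomes. Replicate 2 lies between 1.15 and 1.90 to the right of the border, and replicates 1 and 3 have values there that occur on the left as well.

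Segments were also compared inside classes of summit density, since windows rich in summits had more EPIC2 regions for each of them across the genome. Windows of all autosomes were put into 3 classes of equal size (lower, middle and upper) by the summits of another replicate, replicate 3 for replicate 1 and replicate 1 for the others. In the distal long arm 8 windows fell in the upper class, 2 in the middle and 0 in the lower. In the upper class the distal ratio was 0.866, 1.55 and 0.800 in replicates 1, 2 and 3. The long arm had 0.794, 0.743 and 0.736 there, the short arm 0.829, 0.869 and 0.752, and the other autosomes 0.709, 0.899 and 0.676. Their lower class had 0.283, 0.319 and 0.146. In the upper class the distal ratio was 1.09, 2.09 and 1.09 times that of the long arm. In replicates 1 and 3 most of the difference seen over whole segments was thus gone, and in replicate 2 it was not. The upper class has no upper bound, so density was not matched inside it. Replicates 1, 2 and 3 had 151, 57.4 and 117 summits of their own per distal window of this class. The long arm had 140, 32.4 and 89.6 per window.

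The 2 distal windows of the middle class told the replicates apart further. Replicate 2 had 79 EPIC2 regions and 43 summits there, a ratio of 1.84 against 0.613 in the long arm's windows of that class. Replicate 1 had 0.520 against 0.525 and replicate 3 had 0.343 against 0.356, so both were level with the long arm.

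**Figure D4:**
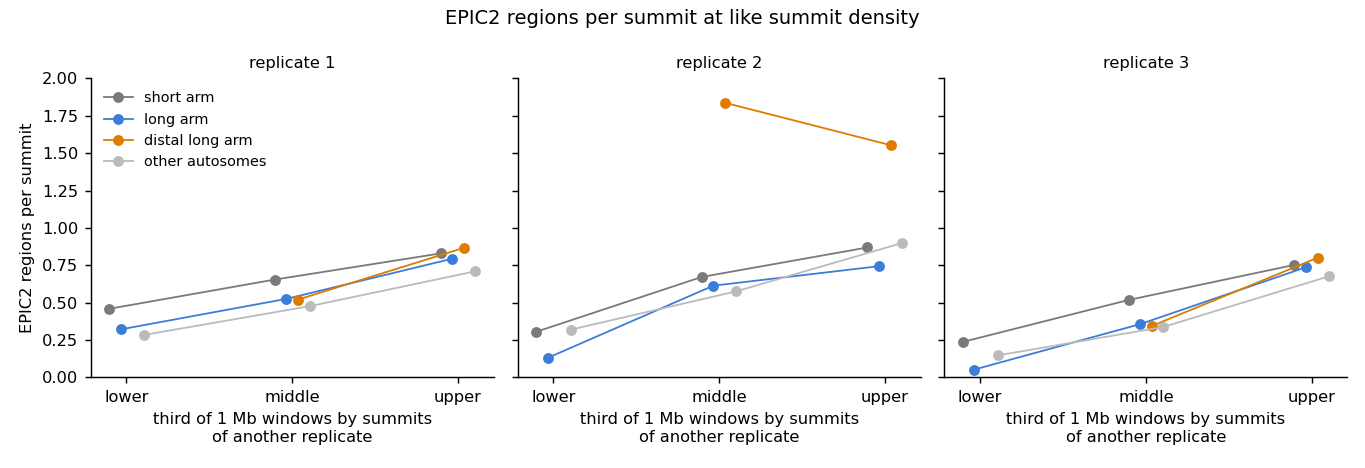
EPIC2 regions per summit in the 3 segments of chromosome 16 and on all other autosomes, for 1 Mb windows in the lower, middle and upper class of summit density as set by another replicate; each point sums the windows of a class. The distal points of replicate 2 stand at 1.84 and 1.55, far above its other points, and those of replicates 1 and 3 lie close to the points of the other segments.

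A common region is an EPIC2 region that holds at least 1 summit of its own replicate, the unit closest to what the study kept. On chromosome 16 there were 4410, 1133 and 2338 common regions in replicates 1, 2 and 3. Over all chromosomes 81.7%, 56.8% and 71.7% of EPIC2 regions held a summit. In the distal long arm 928 of 1250 regions did so in replicate 1 (74.2%, Wilson 95% interval 71.7 to 76.6), 394 of 888 in replicate 2 (44.4%, 41.1 to 47.7) and 639 of 887 in replicate 3 (72.0%, 69.0 to 74.9). Intervals here and below cover counting error only. In replicates 1 and 2 the distal share lay under the level of all chromosomes, and in replicate 3 it lay level with it.

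Of the regions of the long arm 80%, 58.0% and 68.1% held a summit, and in the short arm 76.6%, 57.3% and 64.7%. The difference of distal and long arm was -5.76, -13.7 and 3.93 percentage points in replicates 1, 2 and 3. The replicates thus did not share a direction (mean -5.16 ± 8.81 points, SD, n = 3; exact sign-flip permutation p = 0.5), and the mean was -0.915 without replicate 2. The short arm was lower than the long arm by smaller amounts, at -3.37, -0.767 and -3.42 points (mean -2.52 ± 1.52, SD, n = 3; exact sign-flip permutation p = 0.25).

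The density of common regions was highest in the distal long arm in every replicate, at 85.5, 36.3 and 58.9 per Mb. The long arm had 44.7, 8.69 and 21.9 per Mb and the short arm 54.8, 12.4 and 26.7. On the other autosomes there were 36.8, 9.11 and 20.6 per Mb, so the long arm lay close to the genome's level and under it in replicate 2. Distal over long arm this came to 1.91, 4.18 and 2.69, a mean of 2.92 ± 1.15 (SD, n = 3; exact sign-flip permutation p = 0.25). The short arm had 1.23, 1.42 and 1.22 times that density, a mean of 1.29 ± 0.118 (SD, n = 3; exact sign-flip permutation p = 0.25).

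Seen from the summits, calls of the 2 callers coincided most often in the distal long arm. A summit lay inside an EPIC2 region of its own replicate in 86.5%, 81.6% and 80.6% of cases there, against 62.0%, 40.5% and 46.9% in the long arm and 70.3%, 49.0% and 55.3% in the short arm. EPIC2 regions covered 40.8%, 34.9% and 50.2% of the span of the distal long arm. They covered 11.7%, 4.28% and 13.5% of the long arm and 18.4%, 6.59% and 19.5% of the short arm. Both shares were highest in the distal long arm in all replicates, and a summit placed anywhere is more often inside a region where more of the span is covered.

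EPIC2 regions were wider in the distal long arm than in the long arm. Their median width was 2400, 3600 and 4200 bases in replicates 1, 2 and 3. The long arm had medians of 1800, 2800 and 3600 bases and the short arm of 2000, 2800 and 3800. The difference between replicates was larger than that between segments, and inside each replicate the distal median was the highest. It was 1.33, 1.29 and 1.17 times that of the long arm, a mean of 1.26 ± 0.0858 (SD, n = 3; exact sign-flip permutation p = 0.25). The upper quartile of distal widths was 4400, 5200 and 7300 bases, against 2600, 3800 and 5200 bases in the long arm. Short and long arm had the same median in replicate 2, and their ratio of 1.11, 1 and 1.06 was close to 1 (mean 1.06 ± 0.0556, SD, n = 3; exact sign-flip permutation p = 0.5).

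Neighbouring common regions lay closest in the distal long arm. The median distance between their centres was 8400, 16400 and 11800 bases in replicates 1, 2 and 3. It was 9500, 55150 and 15000 bases in the long arm and in the short arm 9000, 31900 and 14800. Replicate 2, with the fewest common regions, had the widest spacing and the largest gap between segments. Distal over long arm was 0.884, 0.297 and 0.787, a mean of 0.656 ± 0.314 (SD, n = 3; exact sign-flip permutation p = 0.25). Short over long arm was 0.947, 0.578 and 0.987 (mean 0.837 ± 0.225, SD, n = 3; exact sign-flip permutation p = 0.25). In replicates 1 and 3 the short distances were alike and the long ones were not. The lower quartile was 5600 and 7725 bases in the distal long arm and 5700 and 8725 in the long arm, and the upper quartile 12800 and 17975 against 19500 and 29700.

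**Figure D5:**
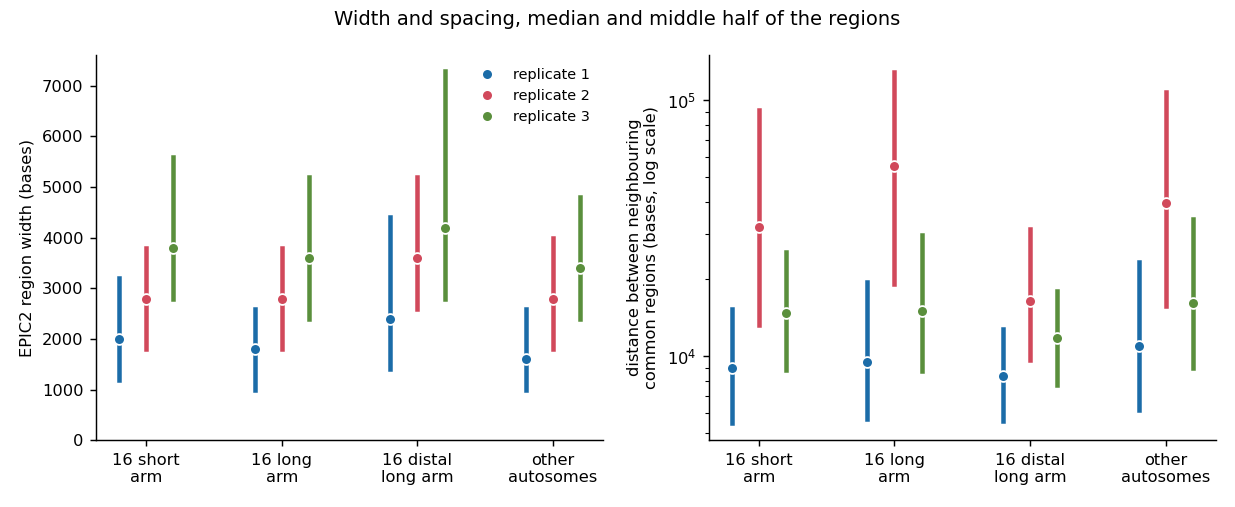
Width of EPIC2 regions in bases, and distance between neighbouring common regions in bases on a log scale, in the 3 segments of chromosome 16 and on all other autosomes; points are medians and bars span the middle 50% of the regions or distances of a replicate. The distal medians are the highest for width, 2400 to 4200 bases, and the lowest for distance, 8400 to 16400 bases, inside each replicate.

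Common regions of the distal long arm also held more summits each, with 1.42, 1.18 and 1.51 in replicates 1, 2 and 3 against 1.23, 1.08 and 1.23 in the long arm. More than 1 summit was found in 28.7%, 15.2% and 33.5% of the distal common regions, and in 20.2%, 8.19% and 20.2% of those of the long arm. The order was the same in all replicates. The authors' EPIC2 score was highest there too. Ranked among all regions of a replicate, the median distal region stood at percentile 73.4, 65.1 and 79, and the median region of the long arm at 49.4, 47.0 and 53.8. The median distal summit stood at percentile 61.7, 61.3 and 53.9 of all summits, against 47.9, 50.1 and 48.5 in the long arm, so the difference in rank was smaller for summits than for regions in each replicate.

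EPIC2 regions that held no summit were most numerous in replicate 2 in the distal long arm, and there alone. Counts were 322, 494 and 248 in replicates 1, 2 and 3, so replicate 2 had the most even though it had the fewest calls in all. These were 24.8%, 47.5% and 22.2% of the chromosome's regions without a summit. The long arm had 377, 212 and 346, and in the short arm 602, 333 and 524, with replicate 2 lowest in both.

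The regions without a summit in replicate 2 mostly coincided with regions of the other replicates. Of the 494 in the distal long arm, 80.0% overlapped an EPIC2 region of replicate 1 (Wilson 95% interval 76.2 to 83.3) and 84.8% one of replicate 3 (81.4 to 87.7). Of 212 in the long arm 77.4% overlapped replicate 1 and 59.9% replicate 3. Of 333 in the short arm 82.0% overlapped replicate 1 and 68.2% replicate 3. The overlap with replicate 1 was thus alike in all segments and that with replicate 3 was highest in the distal long arm. There the regions of replicates 1 and 3 covered 40.8% and 50.2% of the span. They covered 11.7% and 13.5% of the long arm and 18.4% and 19.5% of the short arm. How much overlap this coverage alone would give was not tested. Of the distal common regions of replicate 2, 91.6% overlapped an EPIC2 region of replicate 1 and 84.3% one of replicate 3. In the long arm these were 77.5% and 42.0%. A summit of replicate 1 lay inside 58.1% of the distal regions without a summit of their own, and a summit of replicate 3 inside 50.6%. These shares were 67.9% and 28.8% in the long arm.

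Common regions were shared between replicates more often in the distal long arm. Of the distal common regions of replicate 2, 84.8% overlapped one of replicate 1 and 71.8% one of replicate 3. In the other direction, 40.0% of those of replicate 1 and 40.5% of those of replicate 3 overlapped one of replicate 2. The shares of replicate 2 were 73.4% and 29.0% in the long arm, and those in the other direction 15.0% and 11.1%. Between replicates 1 and 3 the overlap was 67.8% of replicate 1 and 77.0% of replicate 3 in the distal long arm, and 34.7% and 59.7% in the long arm. Every share was higher in the distal long arm, where more of the span was covered by regions of each replicate.

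Positions of single summits matched less closely than regions did. A summit of replicate 2 had a summit of replicate 1 within 100 bases in 44.5% of cases in the distal long arm, 37.8% in the long arm and 41.3% in the short arm. A summit of replicate 3 within 100 bases was found for 8.58%, 6.39% and 5.92% of them. The median distance to the nearest summit was 138 bases from replicate 2 to replicate 1 in the distal long arm. From replicate 2 to replicate 3 it was 2299 bases there. Replicate 3 had 1196 distal summits and replicate 1 had 1523, and why the distances differ this much was not tested. Seen from replicate 1 the nearest summit of replicate 3 was the closer one, at a median of 1775 bases in the distal long arm against 4612 for replicate 2, which had the fewest summits. Within 100 bases replicate 1 still matched replicate 2 more often, in 16.7% of cases against 10.2% for replicate 3.

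Overlapping common regions of different replicates (1 base was enough) were joined, and those to which 2 or 3 replicates contributed were called consensus origins. Chromosome 16 had 1865 consensus origins among 4737 merged regions, or 39.4%, and over all chromosomes 34.5% of merged regions reached at least 2 replicates. The distal long arm had 480 of 844 (56.9%, Wilson 95% interval 53.5 to 60.2), the long arm 565 of 1769 (31.9%, 29.8 to 34.1) and the short arm 820 of 2124 (38.6%, 36.6 to 40.7). The distal share lay well above the level of all chromosomes and the share of the long arm under it. EPIC2 regions covered 40.8%, 34.9% and 50.2% of the distal span, and 11.7%, 4.28% and 13.5% of the long arm. An overlap of 1 base is more easily met where more is covered, and merging also joined separate common regions of a replicate. How far this alone would raise the distal share, here and for all 3 replicates below, was not tested. The count for the chromosome was 448 without replicate 1, 1484 without replicate 2 and 841 without replicate 3, so it rested on replicate 1 most.

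Consensus origins had a density of 44.2 per Mb in the distal long arm, 16.8 in the long arm and 22.8 in the short arm. All 3 replicates took part in 195 of the distal ones (40.6%), in 77 of those of the long arm (13.6%) and in 154 of those of the short arm (18.8%). Their median width was 6700 bases in the distal long arm, 4400 in the long arm and 5000 in the short arm. They covered 44.9% of the distal span and 8.68% of that of the long arm. The median distance between centres was nearly alike, at 15900, 18850 and 17100 bases in the distal long arm, the long arm and the short arm.

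In each segment the consensus origins of all 3 replicates were ranked by the mean percentile of their highest summit score, which is the −log10 of a q-value. In the distal long arm the first lay at chr16:84640801-84676000 (hg19), a zone of 35200 bases with highest scores of 30.1, 31.3 and 16.2 in replicates 1, 2 and 3. It held 9, 3 and 5 summits in that order. The second lay at chr16:89928201-89945400, with scores of 51.3, 47.7 and 11.5, close to the end of the chromosome. The third lay at chr16:89752401-89811400, a zone of 59000 bases with 13, 5 and 10 summits and with highest scores of 36.7, 20.6 and 13.4. All 3 were broad zones with several summits in most replicates. The rank uses the highest summit of a zone, so a zone with more summits had more chances of a high rank. Merging also joined separate common regions of a replicate. In replicates 1, 2 and 3 the first zone joined 5, 2 and 2, the second 2, 1 and 1, and the third 8, 4 and 2.

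The strongest origins of the other segments were narrower, with 1 exception. The first of the long arm, chr16:46427001-46428600, was 1600 bases wide and lay beside the stretch without calls next to the centromere. That stretch takes in the block of repetitive heterochromatin. How reads map beside it was not tested, and no control library is named, so its rank as an origin is uncertain. It held 1 summit in each replicate, with scores of 23.8, 32.4 and 89.2. The second, chr16:69598201-69601200, had 39.5, 17 and 8.57, and the third, chr16:67354201-67368600, had 30.4, 37.3 and 6.95. In the short arm the first was chr16:10836601-10842800, with 27, 24 and 23.1. The second was chr16:2943601-2957400, with 13, 33.1 and 9.70. The third, chr16:1185801-1228800, was the exception, a zone of 43000 bases with 9, 5 and 6 summits.

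The widest single EPIC2 region of the chromosome lay in the distal long arm in all replicates. In replicate 1 it was chr16:88499201-88524400, 25200 bases wide with 8 summits. In replicate 2 it was chr16:88530601-88551200, 20600 bases wide with 4 summits, not far from that of replicate 1 but not overlapping it. In replicate 3 it was chr16:85008001-85062600, 54600 bases wide with 8 summits. After merging, the widest consensus origin was chr16:85490801-85559400, of 68600 bases, with 12, 6 and 7 summits in replicates 1, 2 and 3. The widest origins of the long arm and the short arm reached 26800 and 43000 bases.

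The segments differed as well in the longest stretch with no common region of any replicate. It was measured between neighbouring common regions of the same segment, so the stretch without calls around the centromere was left out. In the distal long arm it was 0.0866 Mb long, from 80184601 to 80271200, and held 3, 3 and 0 EPIC2 regions without a summit in replicates 1, 2 and 3. That of the long arm, with the part beside the centromere left out, was 0.388 Mb, from 59517201 to 59905400, and held 13, 2 and 6 summits outside any common region. In the short arm it was 0.984 Mb, from 6192801 to 7176400, where there was no EPIC2 region and only 6, 0 and 2 summits.

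The long arm was poorest in a block of 7 Mb from 59300001 to 66300000, chosen after its values were seen. It held 72, 11 and 10 EPIC2 regions and 273, 67 and 156 summits in replicates 1, 2 and 3. These were 9.13%, 8.56% and 8.07% of the summits of the long arm, but the 61, 7 and 9 common regions were 4.05%, 2.39% and 1.22% of its common regions. The ratio was 0.264, 0.164 and 0.0641 regions per summit, low in all replicates. Summits were thus called through this block while EPIC2 regions were few. By the mean over replicates of a window's share of the chromosome's common regions, the densest window of the long arm was that from 67300001 to 68300000. It lay 1 Mb further on and held 145, 42 and 106 EPIC2 regions with 104, 28 and 64 common regions, although other windows of the long arm held more common regions in replicates 1 and 2.

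No whole distal window was nearly empty. The lowest EPIC2 count among the 10 whole distal windows was 37, 38 and 21 in replicates 1, 2 and 3. Over the 33 windows of the long arm it was 4, 0 and 0. By the same mean share, the poorest distal window ran from 82300001 to 83300000. It still held 41, 38 and 25 EPIC2 regions and 34, 9 and 16 common regions in replicates 1, 2 and 3. The first window after the border had fewer common regions in replicate 1, at 27, and as many in replicate 3. In the window from 82300001 to 83300000 replicate 2 had nearly as many EPIC2 regions as replicate 1 and more than replicate 3, with 21 summits against 79 and 73. The richest by the mean share, from 85300001 to 86300000, held 154, 110 and 104 EPIC2 regions and 119, 51 and 70 common regions, and other distal windows held more common regions in replicates 2 and 3.

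Since the distal long arm ends at a telomere, it was set beside the end of the short arm over the same length of 10.9 Mb. The short arm end held 85.8, 27.6 and 51.6 EPIC2 regions per Mb in replicates 1, 2 and 3, and 0.769, 0.804 and 0.780 regions per summit. Density in the distal long arm was 1.34, 2.96 and 1.58 times this (mean 1.96 ± 0.873, SD, n = 3; exact sign-flip permutation p = 0.25). Its ratio of regions to summits was 1.07, 1.93 and 0.951 times that of the short arm end, so the replicates did not share a direction (mean 1.32 ± 0.537, SD, n = 3; exact sign-flip permutation p = 0.5). Coverage by regions was 24.8%, 8.53% and 25.9% at the short arm end, under that of the distal long arm in each replicate.

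Other autosomes were cut in the same way, into the last 10.9 Mb before the last call and the rest. By regions per summit in this last stretch, chromosome 16 ranked 3, 2 and 5 of 22 in replicates 1, 2 and 3, and the chromosomes nearest to its 1.56 in replicate 2 were 17 at 1.76, 10 at 1.55 and 8 at 1.49. Over their whole length these chromosomes had 1.32, 0.999 and 1.17 regions per summit in replicate 2, all above the 0.924 of chromosome 16, so a high ratio in this replicate was not particular to distal 16q. The ratio of the last stretch over the rest of the same chromosome was 1.21, 2.16 and 1.20 on chromosome 16, against medians of 1.10, 1.14 and 1.13 over the other 21. It ranked 9, 1 and 10 of 22, so chromosome 16 stood first in replicate 2 alone. Chromosomes 21 and 5 came next in replicate 2, at 1.97 and 1.77. In replicate 3 chromosomes 21 and 9 reached 2.43 and 2.32.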

How the data were processed

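SNS-seq libraries of untreated HCT116 cells, 3 replicates in 1 group, were analysed. Per the submitters' processing notes and the study's methods, reads were mapped by the authors with Bowtie2 (2.3.4.2) on hg19, duplicates were removed with Picard (2.18.17), and calls were made per replicate with MACS2 (2.1.0.20151222, q-value of 0.1) and EPIC2 (FDR of 0.1). The deposited EPIC2 lists give start, end and a score of unstated kind, which served here for ranks and filters inside 1 replicate. In the deposited MACS2 lists each summit has 1 base and a score read as −log10 of the q-value. Read depth is unknown and no reads were recounted.

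EPIC2 regions start on a grid of 200 bases and widths include the end base. Density was per Mb of 1 Mb windows, ended at segment borders, that held any call. Ratios were computed inside each replicate and tested by exact sign-flip permutation over 3 replicates. Shares have Wilson 95% intervals. Named regions were, per segment, the 3 consensus origins of all replicates with the highest mean summit percentile, the widest EPIC2 region of each replicate, the longest stretch without a common region, and the windows at the distal border. The window at the border of the arms holds no call. The densest and poorest windows, the 7 Mb block, the widest consensus origin and the ends of chromosomes are named outside that rule. The segments, measures and tests were chosen with earlier results of these data known.

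Alternatives covered the span, window size, borders, the ends of segments, the q-value, EPIC2 scores, merging of regions, the mean, the overlap rule and leaving out each replicate. Genes and sequences were not analysed here, since the reference at hand is of another build. The interval functions were tested on simulated data. Computation used Python 3.11.15, numpy 2.4.6, pandas 2.3.3, scipy 1.17.1 and matplotlib 3.10.9.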

Additional observations from a re-analysis of the deposited data

How the results depend on the processing

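None of the mean ratios and differences changed direction under the alternatives run. Single replicates did so in 2 cases, replicate 2 at 0.966 for regions per summit of short arm over other autosomes in windows of the upper class of summit density, and replicate 3 at 1.03 for spacing of short over long arm without the first 5 Mb beside the centromere. In all, 93 values with another setting stayed within 1 SD of the replicates, or within 1.5 times for the count of consensus origins. Another 21 did not, and these are among the values given next. The SD is a loose measure where replicates differ widely. EPIC2 density of distal over long arm had an SD of 1.84, so 4.25 per Mb of whole segment counted as within 1 SD of 3.35. Per Mb of whole segment, the heterochromatin block included, distal over long arm was 2.44 for summits, and short over long arm was 1.66 for EPIC2 regions, 1.40 for summits and 1.61 for common regions. With 100 kb windows short over long arm was 1.20 for summits. With the upper 50% of EPIC2 scores, EPIC2 regions per summit were 2.31 for distal over long arm, 2.38 for distal over other autosomes, 1.35 for short over long arm and 1.45 for short arm over other autosomes, width was 1.37 for distal over long arm, short over long arm was 1.52 for EPIC2 and 1.48 for common region density, and 1236 consensus origins were left. Merging EPIC2 regions under 1000 bases apart gave 1.41 for width of distal over long arm and 1.15 for regions per summit of short over long arm. Mean widths gave 1.55 for distal and 1.14 for short over long arm. There were 426 consensus origins when all 3 replicates were required, 1059 with 50% reciprocal overlap, and between 448 and 1484 on leaving out 1 replicate. In windows of the upper class of summit density, chosen after seeing the data, regions per summit were 1.08 for short over long arm and for short arm over other autosomes. Leaving out 1 replicate gave 2.3 to 4.0 for EPIC2 density and 1.31 to 1.87 for regions per summit of distal over long arm. The causes of these shifts were not tested. Unknown depth limits every comparison of densities between replicates, and 3 replicates allow no p under 0.25.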
